A study of Sus scrofa with 6 samples.

Results

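Glycolysis turns glucose taken up from the medium into pyruvate in the cytosol, and the lactate dehydrogenases then interconvert pyruvate and lactate. The expression of 10 genes of this route was compared between porcine embryonic fibroblasts (PEFs) and the porcine induced pluripotent stem cells (piPSCs) derived from them. They are a glucose transporter (SLC2A3), both common hexokinases (HK1, HK2), a phosphofructokinase (PFKP), an aldolase (ALDOA), phosphoglycerate kinase (PGK1), an enolase (ENO1), pyruvate kinase (PKM) and both main lactate dehydrogenase subunits (LDHA, LDHB). They were taken from the 18007 genes of the deposited RNA-seq table by symbol, which found 8 of the 10. ENO1 was found through a table of gene identifiers, and SLC2A3 through the description in its own row and its position. The lines PEF5, PEF7 and PEF8 came from ear tips of day 90 embryos of a Longwhite boar (Large White in the methods of the study) and a Meishan sow, and were grown for at most 3 passages before induction. The lines piPSC5, piPSC7 and piPSC8 were derived from the PEF lines with matching numbers. They were made with lentiviral TetO-FUW-OSKM and FUW-M2rtTA, which express Oct4, Sox2, Klf4 and cMyc under doxycycline, and were grown on mouse fibroblast feeders. Each line gave 1 library. As described, only the piPSCs had transgenes and feeders, so that transgenes, doxycycline, feeders, medium and cell state cannot be told apart in this comparison.

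Each step of glycolysis can be run by isozymes that differ in regulation. Hexokinase traps glucose in the cell as glucose-6-phosphate, phosphofructokinase is the main committed and regulated step, and PGK1 and PKM catalyse the steps that yield ATP. LDHA favours the conversion of pyruvate to lactate, whereas LDHB, the heart-type subunit, favours the reverse reaction, and both assemble into the same tetramers. The hypoxia-inducible factors and MYC are known activators of many genes of the route. Proliferating and pluripotent cells are known for a high glycolytic rate, and cultured fibroblasts are also glycolytic.

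The libraries held between 11010629 (piPSC8) and 17836510 (PEF5) fragments. All 11 fibroblast markers examined (collagens, THY1, VIM, DCN and others) fell in piPSCs, from a summed level of 6034 to 8651 FPKM (fragments per kilobase per 1000000 mapped fragments) to 234 to 431 FPKM, and the part of this fall in the results on glycolysis was not tested. Of 12 pluripotency markers, 10 were listed and 4 were tested, of which 0 rose by limma (2 at an unadjusted p under 0.05, and 2 by voom on fragments) and KLF4 fell. POU5F1 and NANOG were at 0 in every PEF library and at or near 0 in the piPSCs. SOX2 was at 3.01, 2.49 and 0.129 FPKM and LIN28B at 2.51, 0.281 and 8.9 FPKM in piPSC5, piPSC7 and piPSC8, and these were the genes that passed with voom. The summed markers of muscle, cartilage, keratinocytes, endothelium and blood stayed at or under 14.3 FPKM per list in every library. How fragments from the transgenes or from feeder cells were counted is not given in the sources used here. The Y-linked gene DDX3Y had 3439 fragments in PEF8 and 4207 in piPSC8 but 0 in both libraries of lines 5 and 7, although the 3 lines are described as male. Results are therefore also given without a line wherever that ended a call. Most DNA replication and mitosis genes were higher in PEF5 than in the other PEFs, for example MKI67 at 3.83 FPKM against 0.328 in PEF7 and 0.618 in PEF8. The exception was TYMS, at 14.7 FPKM in PEF5, 13.7 in PEF7 and 17.4 in PEF8. Nothing states that libraries of a group came from separate cultures beyond the separate lines, so p-values measure the spread between lines.

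Most of the 10 genes were lower in piPSCs. Of the 10 genes, 6 fell (SLC2A3, LDHA, PKM, ALDOA, ENO1 and PGK1), 2 rose (LDHB and PFKP), and HK1 and HK2 did not pass the test (limma on log2(FPKM + 1), Benjamini-Hochberg adjusted over all 12428 genes tested, threshold 0.05). The reprogramming comparison was broad: 51.7% of all genes tested passed, 21.5% as lower and 30.3% as higher in piPSCs. These are 2667 lower and 3763 higher genes, against 3383 and 2627 after rescaling to equal FPKM sums, which left the calls of the 10 genes as they were. The 10 genes had a median log2 fold change of -0.99, against 0.20 over all genes. In 8 of the 10 genes the PEF and piPSC values did not overlap, which held for 64.1% of all genes tested. Together the 10 genes took 1.97%, 1.59% and 1.88% of all fragments in PEF5, PEF7 and PEF8. The share was 0.841%, 0.886% and 0.837% in piPSC5, piPSC7 and piPSC8, so that every piPSC library lay below every PEF library. In bulk samples, fewer cells of a type and less RNA per cell cannot be told apart.

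**Figure D1:**
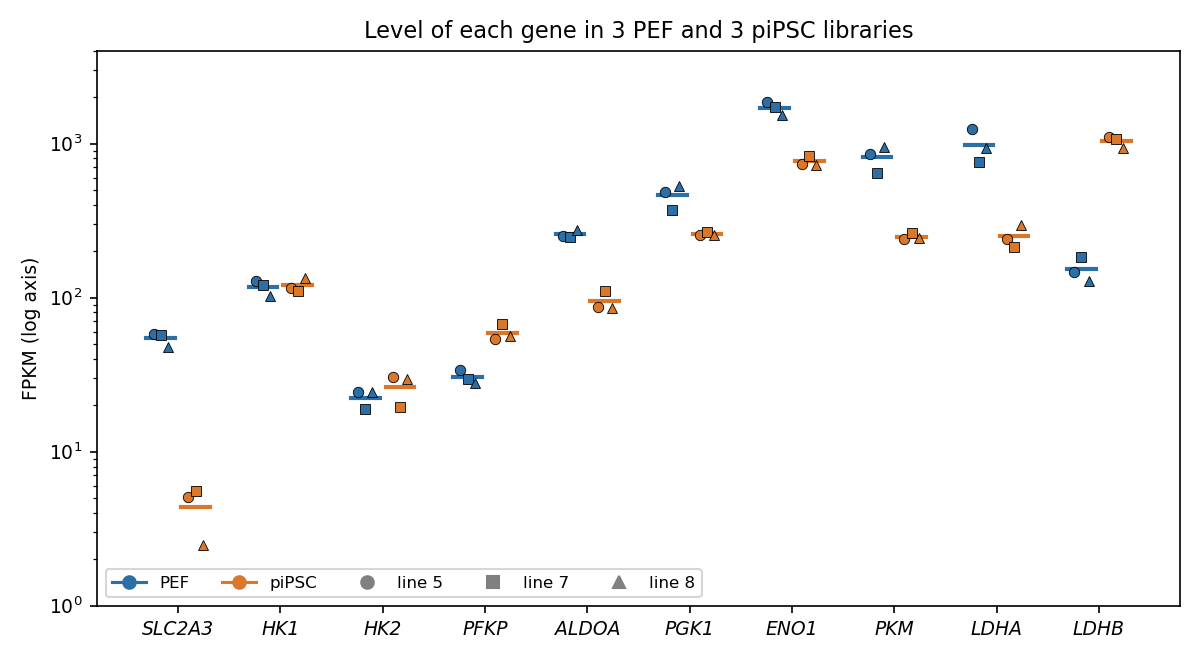
Level of the 10 genes in FPKM on a log axis, with 1 point per library (circle, line 5; square, line 7; triangle, line 8) and a bar at the mean of the 3 libraries of each group. SLC2A3 and LDHB moved furthest, in opposite directions, and the points of HK1 and HK2 overlapped between PEFs and piPSCs.

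SLC2A3 encodes GLUT3, a glucose transporter with a high affinity for its substrate (ENSSSCG00000022925, chr5:62963640-63041739 on Sscrofa11.1, minus strand). It was at 58.1, 57 and 47.8 FPKM in PEF5, PEF7 and PEF8, and at 5.07, 5.57 and 2.46 FPKM in piPSC5, piPSC7 and piPSC8. The groups were far apart, and line 8 was the lowest in both. The mean fell 12.4-fold, from 54.3 ± 5.66 to 4.37 ± 1.67 FPKM (SD, n = 3), and the log2 fold change was -3.41 (standard error 0.27, adjusted p by limma = 0.000343). From 122 to 343 fragments supported each piPSC value, and SLC2A3 went from rank 1001 of all genes by mean FPKM in PEFs to rank 7707 in piPSCs.

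The hexokinases stayed within the spread of the lines. HK1 (ENSSSCG00000010253, chr14:72382912-72460924, plus strand), the broadly expressed hexokinase, was at 129, 120 and 103 FPKM in the PEFs and at 116, 111 and 133 FPKM in the piPSCs of lines 5, 7 and 8. The ranges overlapped, and line 8, unlike the others, had its higher value in the piPSCs. The log2 fold change of HK1 was 0.03 with a 95% interval from -0.34 to 0.40 (adjusted p by limma = 0.87), and its sign turned to -0.29 when the libraries were rescaled to equal FPKM sums. HK2 (ENSSSCG00000008261, chr3:68153824-68231615, minus strand), the inducible isozyme, was at 24.2, 18.9 and 24.2 FPKM in the PEFs and at 30.4, 19.4 and 29.5 FPKM in the piPSCs. Line 7 was the lowest in both groups. Its log2 fold change was 0.21 (95% interval -0.31 to 0.73, adjusted p by limma = 0.446), and -0.10 after the same rescaling. The log2 ratio of HK2 to HK1 was -2.34 ± 0.28 in PEFs and -2.16 ± 0.28 in piPSCs (SD, n = 3, two-sided exact permutation p = 0.5).

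PFKP, the platelet-type phosphofructokinase, rose (ENSSSCG00000011158, chr10:67021453-67082534, minus strand). It was at 33.7, 29.5 and 27.8 FPKM in the PEFs of lines 5, 7 and 8, and at 54.1, 67.3 and 55.9 FPKM in the piPSCs. All piPSC values lay above all PEF values. The log2 fold change was 0.94 (standard error 0.15, adjusted p by limma = 0.0034), just under 2-fold. PFKP shares 10204 bp with PITRM1 on the opposite strand, which itself went from 14.3 to 101 FPKM, and no source says that strand was used in counting, so fragments of the shared stretch cannot be told apart.

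ALDOA, PGK1, ENO1 and PKM, which act between fructose-bisphosphate and pyruvate, each fell. ALDOA (ENSSSCG00000032556, chr3:18234775-18263324, plus strand), which splits fructose-bisphosphate, was at 251, 246 and 274 FPKM in the PEFs and 86.8, 110 and 86.1 FPKM in the piPSCs. Its log2 fold change was -1.45 (standard error 0.15, adjusted p by limma = 0.000798). PGK1 (ENSSSCG00000012440, chrX:62187404-62210705, plus strand), an X-linked gene, was at 486, 368 and 531 FPKM in the PEFs and 255, 266 and 255 FPKM in the piPSCs. The piPSC lines were nearly equal while the PEF lines were spread, with PEF7 the lowest. The log2 fold change of PGK1 was -0.82 (standard error 0.18, adjusted p by limma = 0.0098). This call was lost without both libraries of line 5 (-0.76, adjusted p = 0.117) and without those of line 8 (-0.70, adjusted p = 0.0623).

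ENO1 (ENSSSCG00000022343, chr6:69385486-69401708, minus strand), which makes phosphoenolpyruvate, had the highest FPKM of the 10 genes in PEFs, at 1871, 1737 and 1527 FPKM. It was at 739, 828 and 730 FPKM in piPSC5, piPSC7 and piPSC8. The groups did not overlap, and the log2 fold change was -1.16 (standard error 0.17, adjusted p by limma = 0.00229). Without both libraries of line 5 it was -1.07 with an adjusted p of 0.0617. PKM (ENSSSCG00000001930, chr7:60971835-61033954, plus strand), which makes pyruvate, was at 857, 648 and 948 FPKM in the PEFs and 241, 263 and 243 FPKM in the piPSCs. As with PGK1, PEF7 was the lowest PEF line and the piPSC lines lay close together. PKM fell by 1.69 on the log2 scale (standard error 0.19, adjusted p by limma = 0.000852). Its model spans 27981 bp of PARP6 on the same strand, and PARP6 was listed at 0.412 FPKM in PEFs and 1.31 FPKM in piPSCs. How fragments of the shared stretch were counted is not given, so these values cannot show how much PARP6 adds to PKM. The gene-level values do not separate the splice forms of PKM.

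The lactate dehydrogenase subunits moved in opposite directions. LDHA (ENSSSCG00000013366, chr2:40813963-40826715, minus strand) was at 1242, 759 and 935 FPKM in PEF5, PEF7 and PEF8 and at 241, 213 and 295 FPKM in piPSC5, piPSC7 and piPSC8. The mean fell 3.92-fold, from 979 ± 244 to 250 ± 41.6 FPKM (SD, n = 3), with a log2 fold change of -1.95 (standard error 0.23, adjusted p by limma = 0.00111). LDHB (ENSSSCG00000000576, chr5:51810967-51831490, plus strand) was at 147, 183 and 128 FPKM in the PEFs and at 1097, 1071 and 938 FPKM in the piPSCs. The lowest piPSC value of LDHB thus stood above the highest PEF value by a wide margin. Its mean rose 6.77-fold, from 153 ± 27.7 to 1035 ± 85 FPKM (SD, n = 3), with a log2 fold change of 2.76 (standard error 0.18, adjusted p by limma = 0.000217). LDHB moved from rank 287 to rank 44 of all genes by mean FPKM, and LDHA from rank 31 to rank 171.

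The sum of the lactate dehydrogenase transcripts differed little. It was 1389, 942 and 1064 FPKM in PEF5, PEF7 and PEF8 and 1338, 1284 and 1234 FPKM in piPSC5, piPSC7 and piPSC8 (1132 ± 231 against 1285 ± 52.2, SD, n = 3, two-sided exact permutation p = 0.4). These sums were not rescaled, although the FPKM of all genes added up to 337074 to 348943 in the PEFs and 420498 to 437853 in the piPSCs. The shares within a step do not depend on this scaling. LDHB made up 10.6%, 19.4% and 12.1% of the lactate dehydrogenase sum in the PEFs and 82%, 83.4% and 76.1% in the piPSCs. The make-up of the step was therefore inverted in each of the 3 lines. The log2 ratio of LDHB to LDHA went from -2.66 ± 0.54 to 2.06 ± 0.35 (SD, n = 3), a difference of 4.71, with 5.25 in line 5, 4.37 in line 7 and 4.52 in line 8. The exact permutation test gave p = 0.1, the smallest value that 3 lines against 3 allow.

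LDHB has a processed copy in the pig genome (ENSSSCG00000032557, chr2:12988754-12990030), annotated as a pseudogene. It held 308, 366 and 206 fragments in the PEFs and 1695, 1354 and 1032 fragments in the piPSCs, and its log2 fold change was 2.55 (standard error 0.20, adjusted p by limma = 0.000343). How fragments that fit both copies were counted is not given in the sources used here. The LDHB gene held 3123 to 4914 fragments in the PEFs and 16603 to 26533 in the piPSCs, which was 13.4 to 16.1 times the fragments of the copy in every library.

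**Figure D2:**
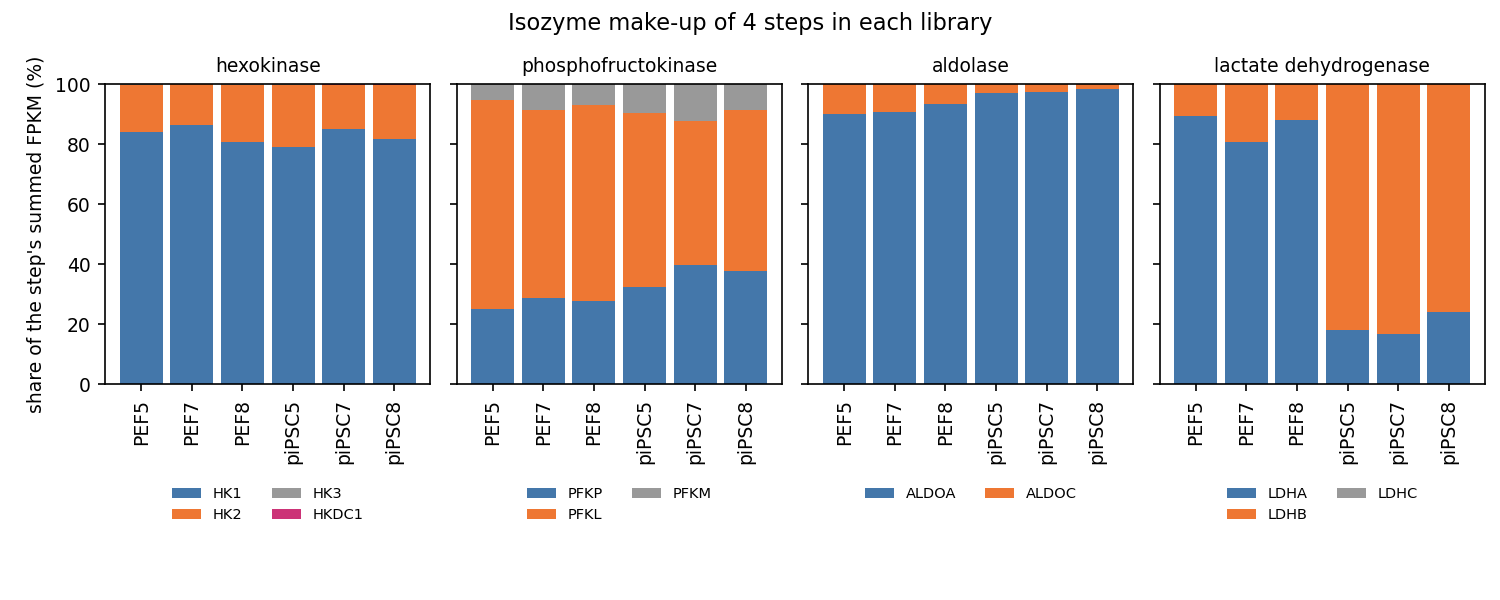
Share of each isozyme (%) in the summed FPKM of hexokinase (HK1, HK2, HK3 and HKDC1), phosphofructokinase, aldolase and lactate dehydrogenase, with 1 stacked bar per library. LDHB made up 10.6% to 19.4% of lactate dehydrogenase in the PEF bars and 76.1% to 83.4% in the piPSC bars, whereas HK1 made up 79% to 86.3% of hexokinase in all bars.

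The other steps with several isozymes changed less in make-up. PFKP made up 27 ± 1.87% of the phosphofructokinase sum in PEFs and 36.5 ± 3.92% in piPSCs (SD, n = 3), while PFKL, the liver type, went from 66 ± 3.42% to 53.3 ± 5.15%. These shares did not overlap between the groups, with an exact permutation p of 0.1 each. The summed phosphofructokinase level was 113 ± 18.9 FPKM in PEFs and 162 ± 11.8 FPKM in piPSCs (SD, n = 3). This sum was likewise not rescaled for the higher FPKM totals of the piPSC libraries. Whether the step as a whole rose therefore cannot be told from it. HK1 held 83.7 ± 2.84% of the sum of HK1, HK2, HK3 and HKDC1 in PEFs and 81.9 ± 2.95% in piPSCs (SD, n = 3, exact permutation p = 0.5). ALDOA held 91.3 ± 1.76% of the aldolase sum in PEFs and 97.6 ± 0.839% in piPSCs (SD, n = 3, exact permutation p = 0.1).

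By FPKM, a level per length of the gene model, the order of the genes differed between the groups. In PEFs it ran ENO1, LDHA, PKM, PGK1, ALDOA, LDHB, HK1, SLC2A3, PFKP and HK2. There, the ranges of LDHA and PKM overlapped, as did those of LDHB and HK1, and the other neighbours were separate. In piPSCs the order was LDHB, ENO1, PGK1, LDHA, PKM, HK1, ALDOA, PFKP, HK2 and SLC2A3. PGK1, LDHA and PKM could not be ordered there, since their means of 259, 250 and 249 FPKM differed by less than the spread of the lines, and HK1 and ALDOA nearly touched at 111 and 110 FPKM. SLC2A3 thus stood above PFKP and HK2 in every PEF library and below both in every piPSC library. An order within a group depends on the model lengths, which were 8422 bp for PKM and 2479 bp for ENO1. PKM held more fragments than ENO1 in PEF5, PEF7 and PEF8 (128671, 91143 and 120994 against 82731, 71967 and 57345).

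**Figure D3:**
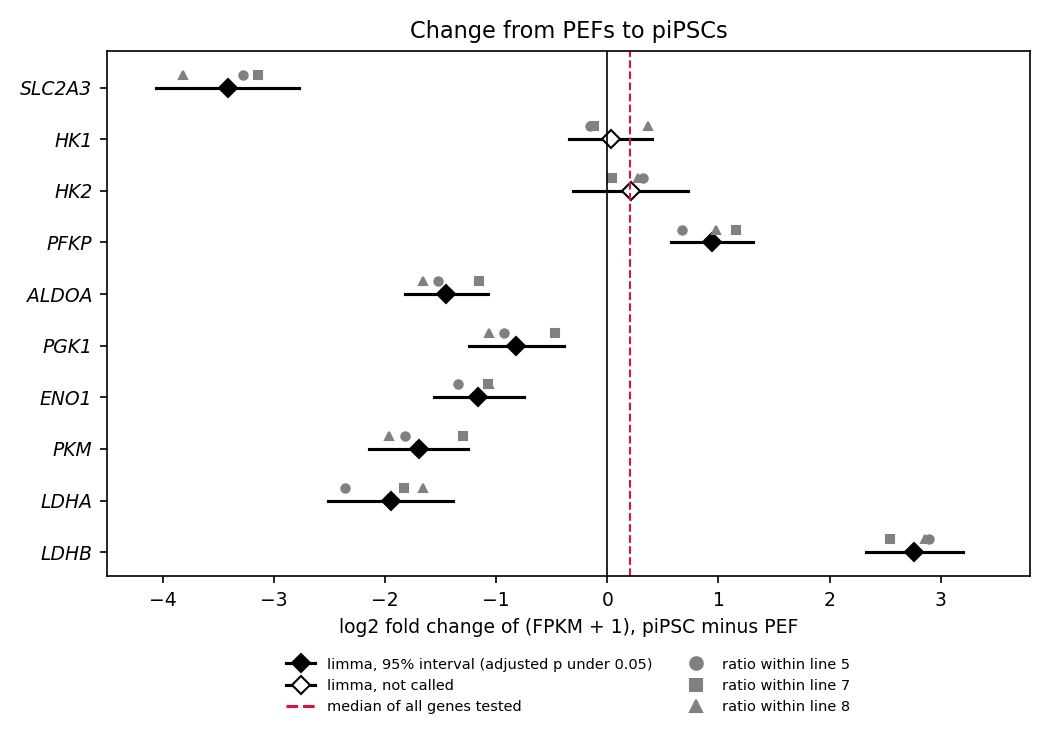
Log2 fold change of (FPKM + 1) from PEFs to piPSCs for the 10 genes (diamond, with the 95% interval as a line; filled where the adjusted p is under 0.05), with the ratio within each line as grey symbols and the median of all genes tested (0.20) as a dashed line. The symbols of all 3 lines lie on the same side of 0 for every gene except HK1, where line 8 is at 0.37 and the others are at -0.16 and -0.12.

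The stretch of 250 bases before the start of each gene was read from the RefSeq annotation of Sscrofa11.1. It was searched on both strands for ACGTG and GCGTG, the core letters of a hypoxia response element. The letters CACGTG, the E-box that MYC and its partners bind, contain ACGTG on both strands and count as 2 matches. Shown are LDHA and PGK1, which fell and have a curated start, and LDHB and PFKP, the genes that rose, whose starts are predicted. The sequences run 5′ to 3′ along the gene and end at the base before its start, and capitals mark the matches. They lie at chr2:40825330-40825579 (LDHA, minus strand), chrX:62187222-62187471 (PGK1, plus strand), chr5:51810682-51810931 (LDHB, plus strand) and chr10:67082337-67082586 (PFKP, minus strand).
LDHA: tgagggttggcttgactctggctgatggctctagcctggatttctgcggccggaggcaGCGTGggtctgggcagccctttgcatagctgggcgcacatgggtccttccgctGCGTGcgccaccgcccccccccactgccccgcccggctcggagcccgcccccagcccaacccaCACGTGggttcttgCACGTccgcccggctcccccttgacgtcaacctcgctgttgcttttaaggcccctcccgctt
PGK1: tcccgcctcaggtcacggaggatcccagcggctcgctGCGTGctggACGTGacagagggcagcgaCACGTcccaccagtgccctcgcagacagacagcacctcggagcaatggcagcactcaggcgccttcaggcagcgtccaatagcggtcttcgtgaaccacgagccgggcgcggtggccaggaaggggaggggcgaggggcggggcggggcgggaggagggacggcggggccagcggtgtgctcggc
LDHB: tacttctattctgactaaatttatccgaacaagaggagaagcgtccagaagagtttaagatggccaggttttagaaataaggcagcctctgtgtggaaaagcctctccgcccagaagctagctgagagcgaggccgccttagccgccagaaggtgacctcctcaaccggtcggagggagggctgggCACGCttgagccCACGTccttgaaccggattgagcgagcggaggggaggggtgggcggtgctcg
PFKP: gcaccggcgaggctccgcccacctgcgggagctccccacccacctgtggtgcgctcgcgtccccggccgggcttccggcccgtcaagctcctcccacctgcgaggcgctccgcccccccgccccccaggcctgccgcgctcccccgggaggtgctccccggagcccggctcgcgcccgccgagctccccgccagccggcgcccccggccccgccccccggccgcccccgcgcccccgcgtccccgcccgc
LDHA held 5 matches, of which an E-box gave 2, and PGK1 held 3. LDHB held 2, and PFKP held none in this window. Of the 10 genes, 8 had at least 1 match, against 43.6% of 19560 promoters of the same length. The median GC content of those promoters was 58.4%, and the windows of the 10 genes ran from 56.8% (ENO1) to 85.2% (PFKP), mostly above it. The part of base composition in the matches was not tested. ALDOA, which fell, had no match either. Its start is predicted, as are those of SLC2A3, PFKP, ENO1, PKM and LDHB. The starts of ALDOA, LDHA, HK1, HK2, PFKP, PGK1 and ENO1 lie inside the gene models used for their FPKM. ALDOA has 9 annotated transcripts and LDHA has 5, and other starts were not searched for any gene. HK1 and HK2, which were not called, held 2 each. ENO1 and PKM held 5 matches each, which include 2 E-boxes in ENO1 and 1 in PKM. An E-box occurred in 6.4% of the 19560 promoters. The start of PKM is uncertain among 22 annotated transcripts. The matches are a description of letters, and the data hold no measure of binding.

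The other enzymes of the route gave 2 higher, 5 lower and 6 uncalled genes of 13 tested, with a median log2 fold change of -0.81. Over all genes tested, 30.3% were higher, 21.5% lower and 51.7% called in either direction. Whether this list or the lists below differ from these shares was not tested. ALDOC, the brain-type aldolase, fell by 2.94 on the log2 scale (24.3 to 2.37 FPKM, adjusted p by limma = 0.000503). The enolases ENO2 and ENO3 also fell, with log2 fold changes of -1.68 and -1.05. BPGM, which makes bisphosphoglycerate, fell by 1.05, and GPI, the isomerase after hexokinase, fell by 0.85. PFKM, the muscle-type phosphofructokinase, rose by 0.98 (7.73 to 16.5 FPKM), and GAPDHS, the sperm-type dehydrogenase, by 0.87 from a low level (3.14 to 6.69 FPKM, adjusted p = 0.0403). GAPDH was at 1045, 782 and 832 FPKM in the PEFs and 559, 726 and 524 FPKM in the piPSCs, and its log2 fold change of -0.56 did not pass (adjusted p = 0.0579). It passed at -0.78 without line 7 (adjusted p = 0.0366), without piPSC7 alone (-0.70, adjusted p = 0.0448) and at -0.88 with equal FPKM sums. PGAM1, the main phosphoglycerate mutase, was at 463 FPKM in PEFs and 461 FPKM in piPSCs (log2 fold change 0.02, adjusted p = 0.955).

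Several of these calls rested on single lines. Without both libraries of line 5, GPI (adjusted p = 0.127), PFKM (0.0986) and ENO3 (0.0932) were no longer called. ENO3 was also lost without line 8 (0.0622) or PEF7 (0.0506), and BPGM without line 7 (0.0522). GAPDHS lost its call in 13 of 18 other settings. PFKL, PGAM2 and LDHD did not pass, with log2 fold changes of 0.22, 0.27 and -0.81. TPI1, triose-phosphate isomerase, had only 1 to 12 fragments per library under a model that overlaps SPSB2 and ENO2 and was not tested.

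Among the other glucose transporters, 4 of 8 tested fell and 0 rose by limma (0 at an unadjusted p under 0.05, and 0 by voom on fragments), with a median log2 fold change of -0.89. The uncalled members ranged from -0.67 for SLC2A8 to 0.68 for SLC2A4. SLC2A5, which carries fructose, was at 183, 152 and 36.9 FPKM in PEF5, PEF7 and PEF8 and at 0.23, 0.364 and 0.472 FPKM in the piPSCs. PEF8 stood well below the other PEFs, yet far above each piPSC line. SLC2A5 fell by 6.24 on the log2 scale (adjusted p = 0.000501), and SLC2A6, SLC2A10 and SLC2A11 also fell, with log2 fold changes of -2.66, -2.61 and -1.12. The call for SLC2A11 was lost without line 5 (adjusted p = 0.128), line 8 (0.0535), PEF7 (0.0593) or piPSC5 (0.0580). The whole SLC2A11 model (11987 bp) also overlaps MIF on the same strand, which was at 118 FPKM in PEF5 and 156 FPKM in piPSC5. How fragments of that stretch were counted is not given, so the value of SLC2A11 cannot be assigned with certainty. SLC2A4, the insulin-responsive transporter, passed without piPSC8 (0.94, adjusted p = 0.0334) and with quantile normalization (0.78, adjusted p = 0.0481). SLC2A12 and SLC2A13 were at 0.04 and -0.00. SLC2A1, which encodes GLUT1, has no row under its own symbol, because its position lies inside a model named P3H1 (ENSSSCG00000023920, chr6:168535654-168690034). That model fell from 93.9 ± 15.9 to 16.3 ± 1.13 FPKM (SD, n = 3), and the value cannot be assigned to either gene.

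**Figure D4:**
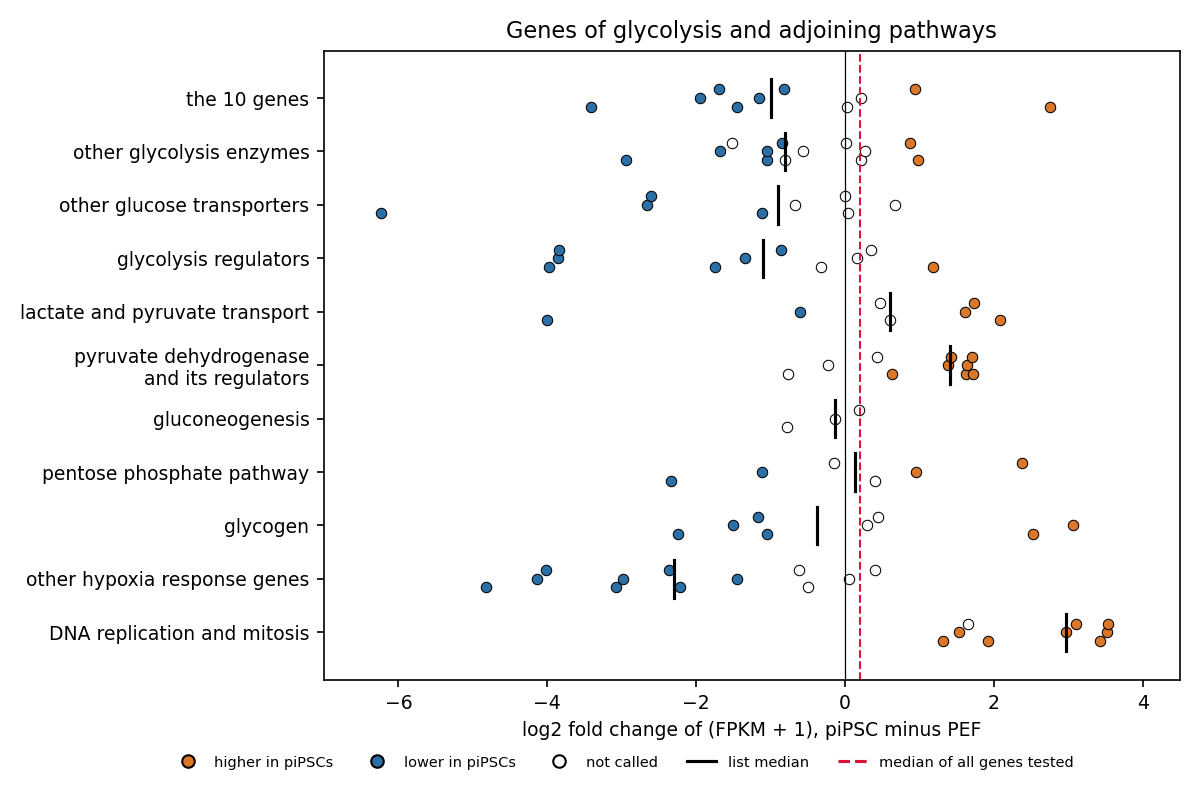
Log2 fold change of (FPKM + 1), piPSC minus PEF, of each tested gene in the 11 lists (orange, higher; blue, lower; open, not called), with the list median as a black bar and the median of all genes tested as a dashed line. The hypoxia response list lies furthest to the left (median -2.29) and the DNA replication list furthest to the right (median 2.97).

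Of 10 regulators of the route tested, 6 fell, 1 rose and 3 did not pass, with a median of -1.10. MYC was at 50.9, 58.9 and 6.95 FPKM in PEF5, PEF7 and PEF8 and at 1.42, 1.05 and 0.267 FPKM in the piPSCs, which carry a cMyc transgene. PEF8 stood apart from the other PEFs. The log2 fold change of MYC was -3.98 (adjusted p = 0.00634), and the call was lost without line 5 (adjusted p = 0.0631), without line 7 (0.0534) and with voom on fragments (0.0662). TXNIP, which restrains glucose uptake, fell by 3.86 and EPAS1, a hypoxia-inducible factor, fell by 3.84. HIF1A and ARNT, whose products pair as a hypoxia-inducible factor, were chosen for mention after their values were seen, and had log2 fold changes of -1.74 and -1.34. The call for ARNT was lost without line 5 (adjusted p = 0.0652). Of 12 other hypoxia response genes, 8 fell, 0 rose by limma (0 also unadjusted and by voom) and 4 did not pass, with values from -0.62 to 0.40 among those 4. NDRG1 fell by 4.82, ADM, which encodes a vasoactive peptide, fell by 4.14, and VEGFA, the angiogenic factor, fell by 4.01 (428 to 25.7 FPKM). The oxygen level of the cultures is not given in the sources used here, and the part of these regulators in the fall of the 6 genes was not tested.

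Genes that carry lactate and pyruvate were divided. Of 7 tested, 3 rose, 2 fell and 2 did not pass. SLC16A3, the lactate exporter MCT4, was at 74.7, 68 and 84.4 FPKM in the PEFs and at 6.85, 2.62 and 2.8 FPKM in the piPSCs (log2 fold change -4.00, adjusted p = 0.000343). SLC16A1, which encodes MCT1, was at 18.9, 13.1 and 10.9 FPKM in the PEFs and at 55.2, 44.9 and 47 FPKM in the piPSCs (1.74, adjusted p = 0.00136). SLC16A7, which encodes MCT2, rose by 2.09, from 0.724 to 6.26 FPKM. MCT4 and LDHA were thus the abundant forms in PEFs, and MCT1 and LDHB in piPSCs.

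Pyruvate dehydrogenase carries pyruvate into the mitochondrial citrate cycle. Of 10 genes of the complex and its kinases and phosphatases, 7 rose, 0 fell by limma (1 at an unadjusted p under 0.05, and 1 by voom) and 3 did not pass, with a median of 1.41. The subunit genes DLAT and PDHA1 rose by 1.72 and 1.71, with PDHA1 going from 21.9 to 73.8 FPKM. PDK3, a kinase that inhibits the complex, rose by 1.64, so that members with opposite effects on the enzyme moved the same way. The PDK3 call was lost without line 5 (adjusted p = 0.128), line 7 (0.0966), PEF7 (0.0582), PEF8 (0.0680) or piPSC5 (0.0688). The uncalled genes ranged from -0.77 to 0.43.

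The side routes of glucose were mixed. In the pentose phosphate pathway 2 of 6 genes rose and 2 fell, beside 51.7% of all genes tested that were called in either direction. PGD, of the oxidative branch, fell by 1.12, while RPIA, of the non-oxidative branch, rose by 2.38 (4.6 to 28.6 FPKM). The PGD call was lost without line 5 (adjusted p = 0.0609). In the glycogen list 2 of 8 rose and 4 fell, among them PGM2 (3.06), the phosphorylase PYGB (2.53) and UGP2 (-2.24), which makes UDP-glucose. In gluconeogenesis 0 of 3 tested genes passed limma's threshold (0 also unadjusted and by voom), with a median of -0.13. Of 9 DNA replication and mitosis genes, 8 rose and 0 fell by limma (0 also unadjusted and by voom), with a median of 2.97, among them CCNB1 (3.54), MCM2 (3.52) and TOP2A (3.43). Their part in the values of the 10 glycolysis genes was not tested.

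The genes whose values were most like those of LDHA and LDHB over the 6 libraries were found by the root mean square distance between centred log2(FPKM + 1) values. For LDHA these were FNDC3B (distance 0.12), FKBP14 (0.15) and SMAP2 (0.16). For LDHB they were TMEM249 (0.13), METTL23 (0.15) and ALDH6A1 (0.15). TMEM249 was at 0.716, 0.849 and 0.187 FPKM in the PEFs and 12.2, 10 and 9.4 FPKM in the piPSCs. Its PEF values lie under the 1 that was added before the logarithm, which shrinks differences between low values, so its small distance is partly set by that scale. FNDC3B was at 46, 26.4 and 35.8 FPKM in the PEFs and 8.15, 6.76 and 7.95 FPKM in the piPSCs, which follows LDHA in having PEF5 highest and PEF7 lowest among the PEFs.

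**Figure D5:**
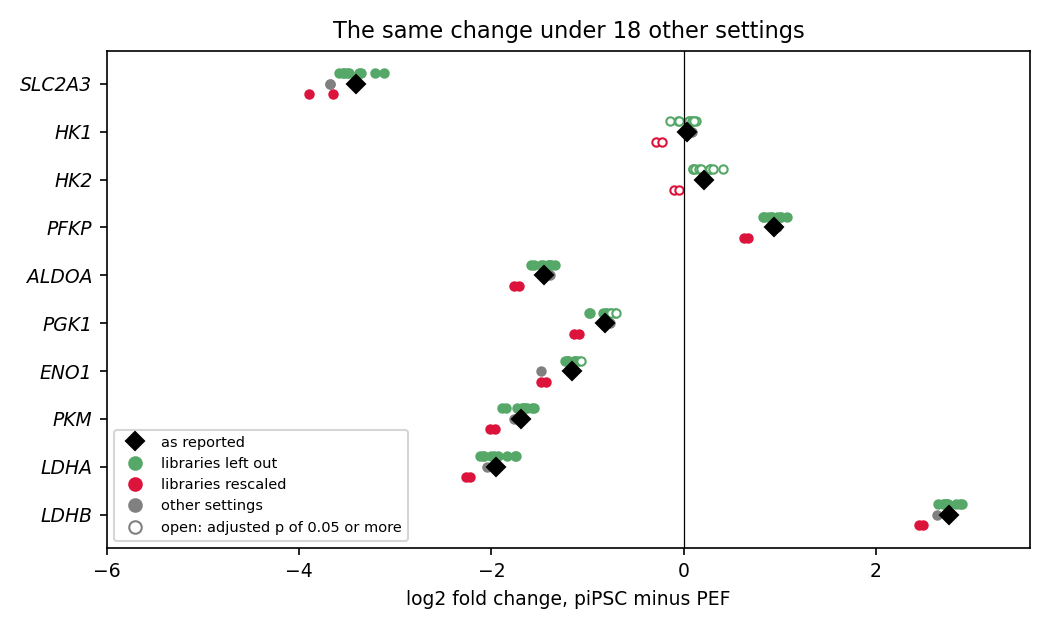
Log2 fold change of each of the 10 genes as reported (black diamond) and under 18 other settings (green, libraries left out; red, libraries rescaled; grey, others; open where the adjusted p is 0.05 or more). The 8 called genes keep their direction in every setting, with SLC2A3 between -3.90 and -3.12 and LDHB between 2.45 and 2.90, and open points among them appear for PGK1 and ENO1.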

How the data were processed

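RNA-seq of 3 PEF and 3 piPSC lines was analysed (poly-A libraries, read from both ends over 150 bp). The authors deposited FPKM values per gene on Sscrofa11.1. The submitters' processing notes name HISAT2 2.1.0, HTSeq 0.6.0 and Bowtie2 2.2.3, without their roles, and whether strand was used or how shared reads were counted is not given in the sources used here. All 18007 genes had FPKM values that were whole multiples of 1 fragment (within 0.0005), so fragments were recovered. They carry no molecular identifiers.

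Groups were compared with limma 3.58.1 in R 4.3.3 (lmFit, eBayes with a trend) on log2(FPKM + 1), taking the 12428 genes whose mean FPKM was 0.5 or more. P-values were two-sided and Benjamini-Hochberg adjusted over all of these genes, and genes under 0.05 were called. Fold changes on this scale understate those of low genes. Sums, shares and ratios were compared with exact permutation tests. The fit was tested on simulated data. Ranks, sums and figures were made with Python 3.11.15, numpy 2.4.6, pandas 2.3.3, scipy 1.17.1 and matplotlib 3.10.9.

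The libraries pair by line, because a PEF line and the piPSC line of its number share an animal. Across genes, their distances from the group means had correlations of 0.0921, 0.0946 and 0.08 within lines 5, 7 and 8, against -0.121 to 0.0553 between lines. The fit was unpaired, after the general statistical test of the study, which set expression side by side within matched lines. A block for the line was an alternative. Other alternatives were the pseudocount, the filter, the scaling, the trend, voom on fragments, a 2-fold threshold, and leaving out libraries or lines. The 10 genes were always named, as were all tested genes of the other glycolysis and transporter lists, the 3 called genes with the largest change in each further list, and the 3 genes nearest to LDHA and LDHB. Some genes of the lists are not reported here by name. The genes and lists were chosen with earlier results of these data known. Promoter sequences were read from the RefSeq annotation, and no protein sequence was used here.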

Additional observations from a re-analysis of the deposited data

Results flagged for a closer look

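In 6 of the named genes the lines had opposite signs, as the log2 ratio of (FPKM + 1) between the piPSC and the PEF library of a line. Each ratio rests on 1 library against 1, and the difference between lines was not tested. HK1 was at -0.16 in line 5, -0.12 in line 7 and 0.37 in line 8. PGAM1 was at -0.43, 0.56 and -0.08 in lines 5, 7 and 8. PGAM2 was at -0.69, 2.21 and -0.71, where piPSC7 alone was high (5.34 FPKM). The muscle gene DES was also highest in piPSC7 (14.2 FPKM, against 2.51 in piPSC8), and its part was not tested. SLC2A12 was at 0.29, 0.25 and -0.41, SLC2A13 at -0.36, 0.33 and 0.02, and SLC2A8 at 0.14, -0.48 and -1.65 in lines 5, 7 and 8.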

How the results depend on the processing

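The 8 called genes of the 10 kept their direction under all 18 alternatives, and 141 of 144 values kept their call. The exceptions were PGK1 and ENO1 without line 5 and PGK1 without line 8. With the line as a block, 6 of the 10 genes were lower and 2 higher as before, and 2450 and 3483 of all genes were lower and higher. Among the other named genes, 686 of 750 values kept direction and call, and the block changed no call of these genes. Of the 10 genes, 4 to 6 were lower and 2 higher when libraries or lines were left out. Requiring at least 2-fold left 1 of the 10 genes higher (LDHB) and 2505 of all genes higher. Without line 5, all genes higher fell to 1805, within 1805 to 3595 over libraries or lines left out, and all genes lower to 1334, within 1334 to 2504. The cause was not tested, beyond the smaller number of libraries. The scaling moved the balance over all genes: 3763 were higher and 2667 lower as reported, 2830 and 3250 with the median ratio, and 2627 and 3383 with equal sums, where the median log2 fold change of all genes was -0.01 and -0.06 in place of 0.20. Voom on fragments called 3751 higher and 2612 lower. Only uncalled genes changed sign. With equal sums and the median ratio, HK1 was at -0.29 and -0.23, HK2 at -0.10 and -0.05, PFKL at -0.10 and -0.05, PGAM1 at -0.31 and -0.25, and SLC2A12 at -0.22 and -0.11. PGAM2 was at -0.09 with equal sums, -0.55 with a pseudocount of 0.1 and -1.54 with voom. SLC2A12 was at -0.04 with that pseudocount and -0.02 with voom, and PGAM1 at -0.02 with quantile normalization. With libraries left out, HK1 ranged from -0.14 (without line 8) to 0.13, and was at -0.06 without PEF8 and -0.05 without piPSC8. PGAM1 ranged from -0.26 (without line 7) to 0.24, and was at -0.21, -0.03 and -0.05 without PEF7, piPSC7 and piPSC8. SLC2A12 ranged from -0.16 (without piPSC7) to 0.37, and was at -0.06, -0.09, -0.08 and -0.06 without PEF8, piPSC5, line 5 and line 7. SLC2A13 ranged from -0.17 to 0.18 (without PEF5 or line 5), and was at 0.15 without piPSC8. With 3 lines a group, changes of about 2-fold and below can go uncalled, and low fragment numbers limit TPI1, PGAM2 and the low transporters.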
